A study of Mus musculus with 19 samples.

Results

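The transcription factors described here are 9 genes listed by name for their part in the self-renewal of blood stem cells: *Hoxa5*, *Hoxa7*, *Hoxa9*, *Hoxa10*, *Hoxb4*, *Meis1*, *Mecom*, *Hlf* and *Prdm16*. They were read in all 19 deposited count files, out of 54352 genes counted in each. All 9 were counted in every library, and all 9 passed the filter on low counts in each of the 14 comparisons made here.

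The study silenced the long noncoding RNA *Spehd* in mouse hematopoietic stem cells (HSCs) and asked what its loss did to gene expression in their progeny. HSCs of strain C57BL6 (C57BL6J in the study's methods) carried a doxycycline-inducible vector with an shRNA (a short hairpin RNA that silences its target). Recipients were sub-lethally irradiated C57BL/6-CD45.1; cKit-w41 mice, which may keep blood cells of their own, so cells that expressed the vector were selected by zsGreen, a fluorescent protein. After 10 weeks of reconstitution, every group, controls included, received doxycycline food for 6 days. *Spehd* was targeted by sh10 or sh20, and shRNA 713 against *Renilla* luciferase, which mouse cells lack, as the control. The LSK fraction (lineage-negative, Sca1+, cKit+, labelled KLS) holds stem cells and multipotent progenitors. Common myeloid progenitors (CMPs) lie further along differentiation. LSK cells gave 4 *Renilla*, 3 sh10 and 3 sh20 libraries, and CMPs gave 4 *Renilla*, 3 sh10 and 2 sh20 libraries. Donors were female, recipients were of both sexes, and both were 9 to 12 weeks old at use. The number of animals behind a library is not given in the sources used here, so p-values measure the spread between these libraries. No counted gene is named *Spehd*, so its knockdown could not be checked in these files.

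Homeodomain proteins of the Hox family bind DNA together with TALE-class partners, among them Meis1 and the Pbx proteins. Posterior Hoxa genes and *Meis1* are active in primitive blood cells and are normally switched down as progenitors differentiate, and their forced expression is a known route to myeloid leukemia. *Mecom*, which encodes Evi1, and *Prdm16* are related zinc-finger factors needed to keep stem cells. *Hlf* encodes a PAR bZIP factor that marks the most primitive cells, and *Hoxb4* is known for expanding HSCs when overexpressed.

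The guide strands of both *Spehd* shRNAs are shown because every knockdown comparison below rests on them. They are the designed sequences, 22 bases long, written 5′ to 3′ as DNA, with the seed (bases 2 to 8) in capitals.
sh10: tACAAAGTcagcttttcctctc
sh20: tATGCTATgacaacccagggca
Each guide was compared with the GENCODE vM21 transcripts of the 9 genes. The longest unbroken complementary run was 10 bases for sh10, in *Hoxa7*, and 15 bases for sh20, in *Meis1*, followed by 13 bases for sh20 in *Prdm16*. The shRNA against *Renilla* reached at most 9 bases in any of the 9. These transcript sites are given 5′ to 3′, with the complementary run in capitals.
Hoxa7 site for sh10: gttttaatggggTGACTTTGTA
Meis1 site for sh20: gggagTGGGTTGTCATAGCAac
Prdm16 site for sh20: ccgCCTGGGTTGTCATttaaaa
The *Meis1* run pairs with bases 3 to 17 of sh20 and is found in 2 of 9 *Meis1* transcripts. The *Prdm16* run pairs with bases 7 to 19 and is found in 7 of 13 transcripts. Neither run covers the whole seed. The *Hoxa7* run pairs with bases 1 to 10 of sh10, seed included, and is found in 2 of 5 transcripts. Matches to the seed alone were more common. The sh10 seed matched 5 of the 9 genes (*Hoxa7*, *Hoxa9*, *Hoxb4*, *Meis1* and *Hlf*). The sh20 seed matched 4 (*Meis1*, *Mecom*, *Hlf* and *Prdm16*), and that of the *Renilla* shRNA matched 2 (*Mecom* and *Hlf*). These are matches of letters, and no measurement here shows that a guide acts on them. The share of all genes with such seed matches or runs is not given here, so these counts cannot be called high or low. The values of all 9 genes with each shRNA are given below or shown in the figures.

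The labels were checked against *Ly6a* and *Kit*, of 7 gate markers listed, and against markers of other cells. *Ly6a*, which encodes Sca1, was at 50.9 ± 8.62 CPM (counts scaled to library size; SD, n = 4) in LSK *Renilla* libraries and 5.17 ± 2.03 (SD, n = 4) in CMP *Renilla* libraries. *Kit*, which both gates require, was at 852 ± 76.5 and 712 ± 72.4 CPM (SD, n = 4 each). All 8 erythroid and megakaryocyte progenitor markers listed were higher in CMPs, led by *Gata1* (log2 fold change 2.07, adjusted p = 5.15e-07). In contrast, 7 of 8 granulocyte and monocyte progenitor markers were lower in CMPs, among them *Elane*, a neutrophil granule protease (log2 fold change -2.06, adjusted p = 1.6e-06), which goes against the label. The summed level of 7 mature neutrophil markers ran from 4.44 to 311 CPM in LSK *Renilla*, from 64.7 to 283 in LSK sh10 and from 6.43 to 12.0 in LSK sh20 libraries, against 1.95 to 12.0 in the 9 CMP libraries. All 7 had counts in each group. All 5 mast cell and basophil markers were lower in CMP than in LSK *Renilla* libraries, 3 of 5 red cell markers were higher, and of 5 lymphoid markers tested *Cd2* and *Cd3e* were higher. Their part in the results was not tested. Totals of counts on genes ran from 3647318 to 5965155. The 5 sh20 libraries had from 17174 to 18066 genes detected, fewer than any of the 14 others (18552 to 20678). The CMP sh20 libraries B and C lay far from each other (the SD over genes of their log2 CPM difference was 1.37). Between any other library and the rest of its group it was at most 0.989. In CMP sh20 that rest is a single library and elsewhere it is more, so the values are not like for like. LSK sh10 library B lay farther out, at 0.92, than A and C, at 0.576 and 0.63. The LSK sh20 libraries A to C lay at 0.989, 0.905 and 0.955. Beside the values the results turn on, those without CMP sh20 library B or C, or without LSK sh10 library B, are given.

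The main pattern was the fall of the group from LSK cells to CMPs. With *Renilla* shRNA, 8 of the 9 genes were lower in CMPs and none was higher, in the quasi-likelihood test of edgeR (p-values adjusted by Benjamini-Hochberg over 15066 genes). Over all genes tested, 8.73% were lower and 11% higher. The median log2 fold change of the 9 was -1.42, against -0.02 over all genes. With sh10, 7 were lower against 8.58% of all genes, and with sh20, 5 were lower against 8.64%. The medians of the 9 were -1.22 and -1.35. *Hoxa7*, *Hoxa9*, *Hoxa10*, *Mecom* and *Hlf* were lower in all 3 comparisons, which share no library, and *Hoxb4* was called in none of them. Without LSK sh10 library B the 7 genes called with sh10 were still lower, and their values are given gene by gene. In bulk RNA, fewer cells of a type and less RNA per cell cannot be told apart.

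**Figure D1:**
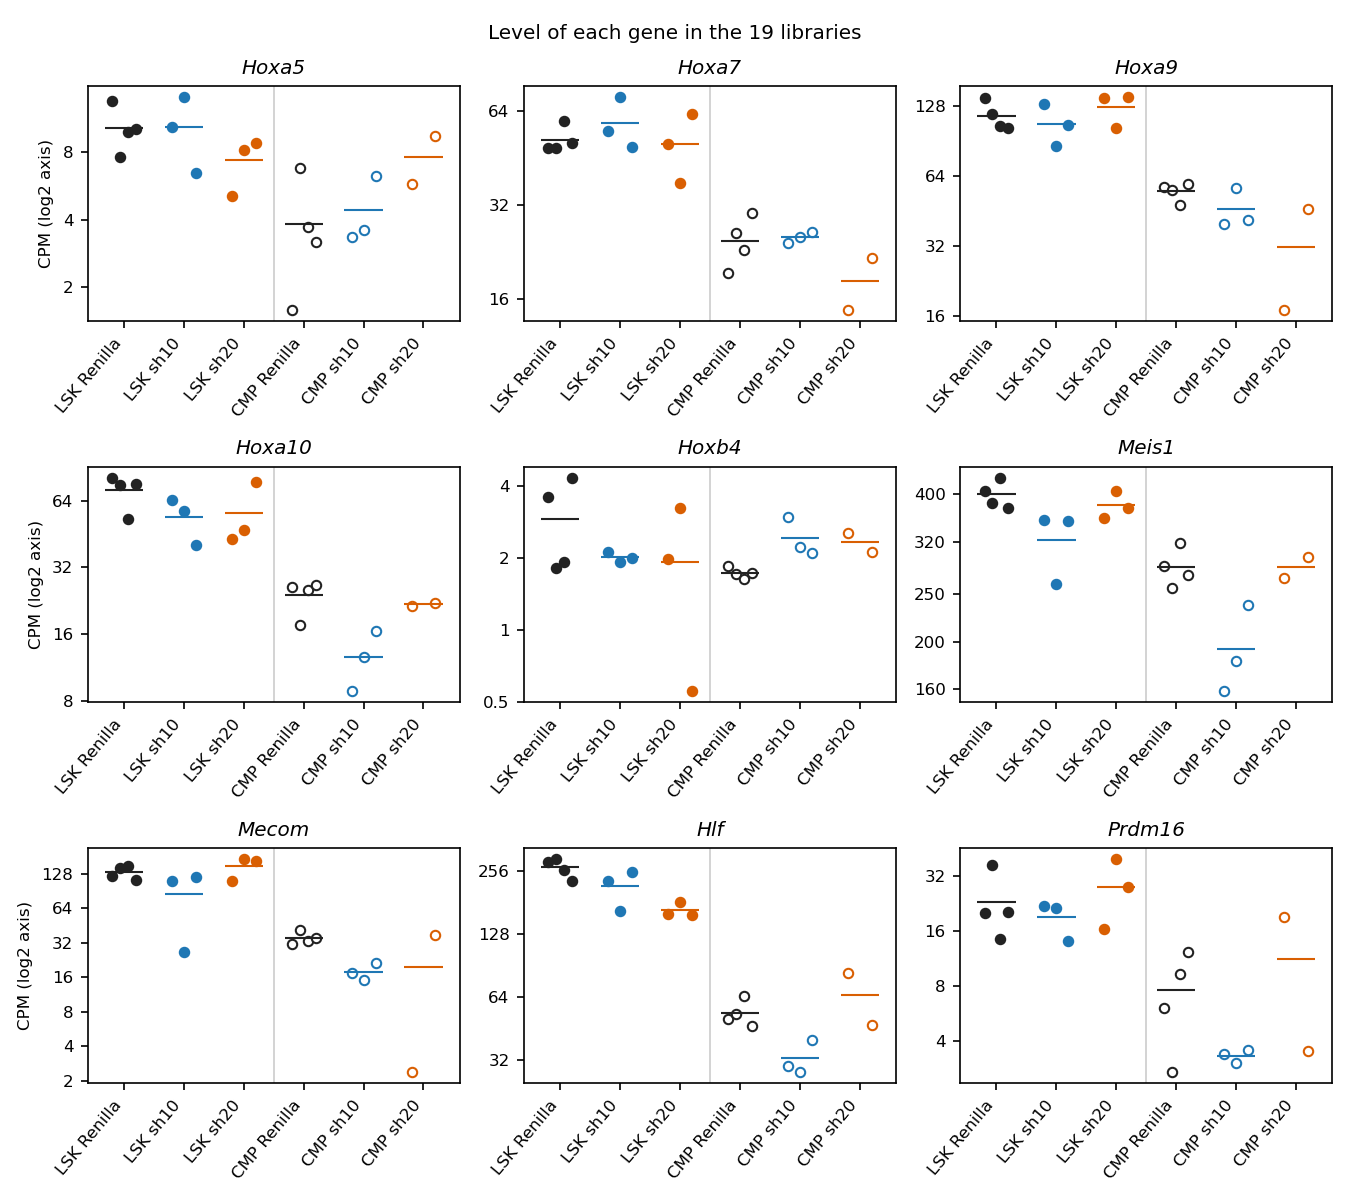
Each point is 1 of the 19 libraries, and each panel is 1 gene. The vertical axis is CPM after TMM normalization on a log2 scale, horizontal lines are group means, LSK libraries are filled and CMP libraries open. For Hoxa7, Hoxa9, Hoxa10 and Hlf every CMP library lies below every LSK library, whereas the Hoxb4 groups overlap.

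*Hlf* had the largest fall of the 9 with *Renilla* and with sh10, but not with sh20. It was at 284, 294, 259 and 230 CPM in LSK *Renilla* libraries A to D, and at 50, 53.1, 64.7 and 46.4 in CMP *Renilla* libraries A to D. In sh10 cells it was at 231, 166 and 254 CPM in LSK and at 30.1, 27.9 and 40.1 in CMP libraries. In sh20 cells it was at 159, 183 and 159 CPM in LSK libraries A to C and at 83.7 and 46.9 in CMP libraries B and C. No CMP library reached the lowest LSK library. The fall was 4.98-fold with *Renilla* (log2 fold change -2.32 ± 0.18 SE, adjusted p = 3.74e-07), 6.63-fold with sh10 (-2.73 ± 0.22 SE, adjusted p = 5.53e-07) and 2.55-fold with sh20 (-1.35 ± 0.23 SE, adjusted p = 0.000997), all by edgeR. By mean level the groups ran LSK *Renilla*, LSK sh10, LSK sh20, CMP sh20, CMP *Renilla*, CMP sh10. The ranges of neighbours overlapped except between LSK sh20 and CMP sh20 and between CMP *Renilla* and CMP sh10. Without CMP sh20 library B the sh20 log2 fold change was -1.82, and without C it was -0.99. Without LSK sh10 library B the sh10 log2 fold change was -2.86.

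*Mecom* also fell with every shRNA, most with sh20, and varied widely between libraries. It was at 121, 142, 149 and 113 CPM in LSK *Renilla* libraries A to D and at 31.3, 41.7, 33.4 and 35.3 in the CMP *Renilla* libraries. In sh10 cells it was at 111, 26.4 and 119 CPM in LSK libraries and at 17.2, 15.1 and 21.3 in CMP libraries. In sh20 cells it was at 110, 172 and 163 CPM in LSK libraries, and at 2.37 CPM (14 counts) in CMP library B and 37.1 CPM (211 counts) in C. Library B of LSK sh10 lay within the range of the CMP libraries, and library B of CMP sh20 was the lowest of all 19. The fall from LSK to CMP was 3.71-fold with *Renilla* (log2 fold change -1.89 ± 0.50 SE, edgeR adjusted p = 0.0128), 4.78-fold with sh10 (-2.26 ± 0.59 SE, edgeR adjusted p = 0.0147) and 7.54-fold with sh20 (-2.92 ± 0.70 SE, edgeR adjusted p = 0.0104). Without CMP sh20 library B the sh20 log2 fold change was -1.99, and without C it was -5.95. Without LSK sh10 library B the sh10 log2 fold change was -2.66 (adjusted p = 0.00218).

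*Prdm16*, the relative of *Mecom*, varied widely between libraries as well. It was at 19.9, 36.6, 14.5 and 20.3 CPM in LSK *Renilla* libraries and at 6.06, 2.68, 9.28 and 12.3 in CMP *Renilla* libraries. In sh10 cells it was at 21.9, 21.2 and 14.1 CPM in LSK and at 3.37, 3.01 and 3.55 in CMP libraries. In sh20 cells it was at 16.4, 39.6 and 27.6 CPM in LSK libraries and at 19 and 3.51 in CMP libraries B and C, so here the cell types overlapped. It fell 3.01-fold with *Renilla* (edgeR adjusted p = 0.0283) and 5.72-fold with sh10 (edgeR adjusted p = 0.00729). With sh20 the log2 fold change was -1.30, with a 95% interval from -2.61 to 0.01 (edgeR adjusted p = 0.174). Without CMP sh20 library B it was -2.97, and without C it was -0.55. Without LSK sh10 library B the sh10 log2 fold change was -2.41, against -2.52 with it. The count behind these values was as low as 11 in CMP *Renilla* library B.

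*Meis1* fell least of the 8 genes called with *Renilla*. Its level was 406, 384, 432 and 375 CPM in LSK *Renilla* libraries and 285, 257, 319 and 273 in CMP *Renilla* libraries. In sh10 cells it was 355, 262 and 352 CPM in LSK and 158, 183 and 237 in CMP libraries. In sh20 cells it was 358, 407 and 375 CPM in LSK and 270 and 298 in CMP libraries. The groups did not overlap within any shRNA. The fall was 1.41-fold with *Renilla* (log2 fold change -0.49 ± 0.12 SE, edgeR adjusted p = 0.00678) and 1.67-fold with sh10 (-0.74 ± 0.14 SE, edgeR adjusted p = 0.00123). With sh20 the log2 fold change of -0.42 ± 0.15 SE missed the threshold (edgeR adjusted p = 0.0739), and it was -0.34 without CMP sh20 library B and -0.49 without C. Without LSK sh10 library B the sh10 log2 fold change was -0.85.

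Among the posterior Hoxa genes, *Hoxa10* fell most with *Renilla*. It was at 81.1, 75.5, 52.9 and 76.0 CPM in LSK *Renilla* and at 26.1, 17.5, 25.3 and 26.8 in CMP *Renilla* libraries, a 2.99-fold fall (edgeR adjusted p = 0.00023). In sh10 cells it went from 64.3, 57.4 and 40.5 CPM in LSK libraries to 8.83, 12.7 and 16.5 in CMP libraries, a 4.26-fold fall (edgeR adjusted p = 0.000104). In sh20 cells it went from 43.0, 47.3 and 77.9 CPM to 21.5 and 22.1, a 2.57-fold fall (edgeR adjusted p = 0.00765). The sh20 log2 fold change was -1.33 without CMP sh20 library B and -1.38 without C. Without LSK sh10 library B the sh10 log2 fold change was -2.02, against -2.09 with it.

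*Hoxa9*, the Hoxa gene most often tied to leukemia, was at 138, 119, 105 and 103 CPM in LSK *Renilla* libraries and at 57.4, 55.8, 48.0 and 59.1 in CMP *Renilla* libraries. It was at 130, 86.3 and 106 CPM in LSK sh10 and at 39.8, 56.9 and 41.6 in CMP sh10 libraries. In sh20 cells it was at 138, 103 and 141 CPM in LSK libraries, at 16.9 in CMP library B and at 46.4 in C. The cell types were apart with each shRNA. It fell 2.11-fold with *Renilla*, 2.33-fold with sh10 and 4.03-fold with sh20 (edgeR adjusted p = 0.00355, 0.00469 and 0.000477). With sh20 the log2 fold change of -2.01 was -1.45 without CMP library B and -2.90 without C. With sh10 that of -1.22 was -1.33 without LSK library B.

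*Hoxa7*, the neighbour of *Hoxa9* in the cluster, was at 48.8, 48.8, 59.5 and 50.5 CPM in LSK *Renilla* libraries and at 19.5, 26.1, 23 and 30.2 in CMP *Renilla* libraries. With sh10 its CMP libraries were at 24.2, 25.3 and 26.3 CPM, and with sh20 at 14.7 and 21.8, all below the lowest LSK library (37.8 CPM, LSK sh20 B). It fell 2.10-fold, 2.32-fold and 2.76-fold with *Renilla*, sh10 and sh20 (edgeR adjusted p = 0.00106, 0.0012 and 0.0011). The 95% intervals of its fall overlapped between the shRNAs. With sh20 the log2 fold change of -1.46 was -1.20 without CMP library B and -1.77 without C. With sh10 that of -1.21 was -1.02 without LSK library B.

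The last pair, *Hoxa5* and *Hoxb4*, rested on few counts. *Hoxa5* had 6 to 74 counts per library. It was at 13.5, 7.63, 9.82 and 10.1 CPM in LSK *Renilla* and at 1.58, 6.82, 3.71 and 3.19 in CMP *Renilla* libraries, a 2.67-fold fall (edgeR adjusted p = 0.0213). The sh10 fall missed the threshold (log2 fold change -1.22 ± 0.46 SE, edgeR adjusted p = 0.0818), and with sh20 the log2 difference was 0.05, with a 95% interval from -1.02 to 1.11. The sh10 value was -0.91 without LSK sh10 library B, and the sh20 value was 0.37 without CMP sh20 library B and -0.35 without C. *Hoxb4* had 3 to 20 counts per library and group means from 1.72 to 2.91 CPM. Its groups overlapped with every shRNA. The 95% interval of its CMP against LSK log2 fold change ran from -1.79 to 0.29 with *Renilla*, so a fall as large as those of its neighbours in this list was not distinguishable from no change at this depth.

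**Figure D2:**
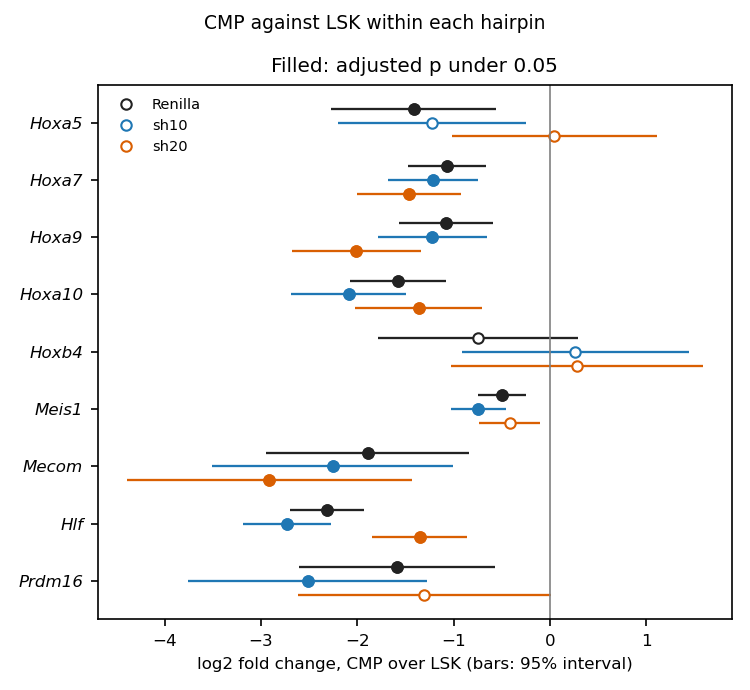
Points are log2 fold changes of CMP over LSK for each gene with Renilla (black), sh10 (blue) and sh20 (orange) shRNA, and bars are 95% intervals from edgeR. Filled points passed an adjusted p of 0.05. Hoxa7, Hoxa9, Hoxa10, Mecom and Hlf are filled with every shRNA, and Hoxb4 is open with every shRNA.

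Levels were compared between genes per kilobase of exon (CPM per exonic kb, with the exons of GENCODE vM21 merged). In LSK *Renilla* libraries *Hlf* was the highest at 39.9, then *Meis1* at 37.9, *Hoxa10* at 21.8, *Hoxa9* at 20.9, *Hoxa7* at 18, *Mecom* at 10.6, *Hoxa5* at 5.48, *Prdm16* at 2.45 and *Hoxb4* at 1.133. In CMP *Renilla* libraries *Meis1* came first at 26.9, and *Hlf*, at 8.02 CPM per exonic kb, came after *Hoxa9* at 9.87 and *Hoxa7* at 8.58. *Hlf* thus lost more of its rank than any other of the 9 on this scale.

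The 4 Hoxa genes of the list lie in 1 cluster on the minus strand of chromosome 6 (GRCm38, GENCODE vM21). *Hoxa5* (ENSMUSG00000038253.6) spans 52201754 to 52204587, *Hoxa7* (ENSMUSG00000038236.8) 52214491 to 52221854, *Hoxa9* (ENSMUSG00000038227.15) 52223100 to 52231089 and *Hoxa10* (ENSMUSG00000000938.11) 52231197 to 52240854. On the scale of CPM per exonic kb, the level in LSK *Renilla* libraries rose from 5.48 at *Hoxa5* and 2.03 at *Hoxa6* to between 18 and 21.8 at *Hoxa7*, *Hoxa9* and *Hoxa10*. At the ends of the cluster, *Hoxa11* had at most 1 count in any library and *Hoxa13* had 0 in all 19. Of the 34 other Hox genes in the files, 8 passed the filter in the 6-group fit. *Hoxa3* was lower in CMPs (log2 fold change -3.53, adjusted p = 0.000879) and *Hoxa4* higher (2.33, adjusted p = 0.0312), on at most 47 and 19 counts. The median log2 fold change of the 8 was -1.13. In the Hoxb cluster, *Hoxb2* was at 5.86 and *Hoxb5* at 2.97 CPM per exonic kb in LSK *Renilla* libraries, both above *Hoxb4* at 1.133.

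**Figure D3:**
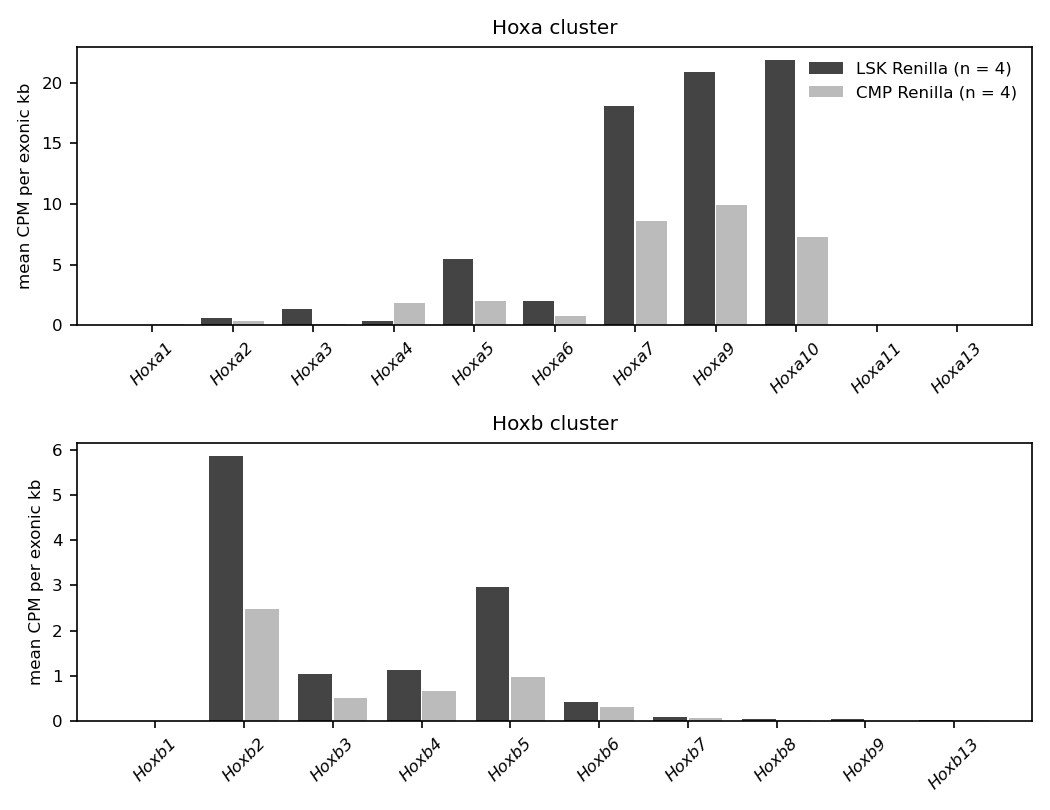
Bars are the mean CPM per exonic kilobase of each Hoxa (top) and Hoxb (bottom) gene in 4 LSK Renilla (dark) and 4 CMP Renilla (light) libraries, in the order of the paralog numbers. Hoxa7, Hoxa9 and Hoxa10 stand between 18 and 21.8 in LSK cells, and the vertical axes of the panels differ.

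*Meis1* (ENSMUSG00000020160.18) lies on chromosome 11 from 18879817 to 19018985 and *Hlf* (ENSMUSG00000003949.16) on the same chromosome from 90336536 to 90390895, both on the minus strand. *Hoxb4* (ENSMUSG00000038692.8) lies there on the plus strand, from 96318267 to 96321638. *Mecom* (ENSMUSG00000027684.16) spans 29951296 to 30548008 of chromosome 3 and *Prdm16* (ENSMUSG00000039410.16) 154316125 to 154636873 of chromosome 4, on the minus strand. The counts cover exons and do not separate the transcripts of a gene, of which *Mecom* has 17 and *Prdm16* 13.

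Some of these genes share exonic bases with genes on the opposite strand. The SMART-Seq v4 kit does not mark strand, whereas HTSeq by default counts by strand, so reads from such a pair cannot be told apart. *Hoxaas3*, an antisense gene, covers 586 exonic bases (20.4%) of *Hoxa7* and had 18 to 73 counts per library. It was also lower in CMPs with *Renilla* shRNA (log2 fold change -1.04, edgeR adjusted p = 0.00673). Gm16140, antisense to *Meis1*, covers 896 of its exonic bases (8.51%) and had 31 to 190 counts. The shared bases of *Mecom* and *Prdm16* with genes on the opposite strand were 81 and 109, with at most 16 and 7 counts on those genes. On the same strand, Gm37818 shares 1029 exonic bases (9.77%) with *Meis1* and had 1 to 24 counts. *Mir196b* shares 85 (1.52%) with *Hoxa9* and had at most 0 counts.

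Promoters are shown for 3 of the genes: *Hlf*, with the largest fall with *Renilla* shRNA, *Meis1*, with the smallest among those called with *Renilla* shRNA, and *Hoxa9*, which fell in all 3 comparisons. Each is the RefSeq window (GRCm38.p6) from 250 bases before to 50 after the annotated start, on the strand of the gene. Capitals mark matches on either strand to short forms of known motifs: TGACAG for Meis proteins, TGATTNAT for Hox with Pbx proteins, GATAA for GATA factors, TGTGGT for Runx factors, GAGGAAGT for Ets factors and TTACGTAA for Hlf.
Hlf, minus strand of chr11:90390868-90391167: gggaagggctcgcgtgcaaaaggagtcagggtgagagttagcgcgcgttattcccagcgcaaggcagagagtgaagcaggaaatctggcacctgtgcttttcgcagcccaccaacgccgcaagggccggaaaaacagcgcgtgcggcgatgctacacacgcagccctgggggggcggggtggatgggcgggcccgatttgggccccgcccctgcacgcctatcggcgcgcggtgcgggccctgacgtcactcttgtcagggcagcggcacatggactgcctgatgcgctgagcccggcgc
Meis1, minus strand of chr11:19018920-19019219: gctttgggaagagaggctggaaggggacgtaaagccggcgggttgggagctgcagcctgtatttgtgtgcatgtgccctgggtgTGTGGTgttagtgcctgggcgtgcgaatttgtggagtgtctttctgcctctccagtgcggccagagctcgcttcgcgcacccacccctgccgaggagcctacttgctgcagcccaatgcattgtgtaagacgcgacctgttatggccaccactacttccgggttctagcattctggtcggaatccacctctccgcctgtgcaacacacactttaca
Hoxa9, minus strand of chr6:52227321-52227620: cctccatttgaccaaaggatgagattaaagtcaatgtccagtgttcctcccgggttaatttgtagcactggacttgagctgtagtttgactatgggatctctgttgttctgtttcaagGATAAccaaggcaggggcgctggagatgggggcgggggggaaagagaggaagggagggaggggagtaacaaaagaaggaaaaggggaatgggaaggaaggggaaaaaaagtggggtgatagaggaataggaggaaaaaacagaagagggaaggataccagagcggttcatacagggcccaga
The *Hlf* window held none of the 6 motifs, the *Meis1* window held 1 TGTGGT and the *Hoxa9* window 1 GATAA. RefSeq gave 11 windows for the 9 genes, with *Hoxa10* and *Mecom* having 2 starts each. GATAA was found for 4 genes, in 5 of the 11 windows, and in 25.4% of the 32851 promoter windows of all genes. TGTGGT was found in 1 window (*Meis1*) and in 16.8% of all, and TGACAG in 1 (*Mecom*) and in 19.2% of all. The Hox with Pbx, Ets and Hlf motifs were in none of the 11 and in 3.22%, 3.2% and 0.119% of all. The *Hlf* window was 67.3% G and C with 30 CG dinucleotides, against a median of 52.7% and 7 over all windows. The *Meis1* and *Hoxa9* windows were at 58.3% and 49.7%.

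Genes that work with these factors were read from lists, in the comparison of CMPs with LSK cells where 8.73% of all genes were lower and 11% higher with *Renilla* shRNA. Of 8 TALE cofactors tested, *Tgif1* was lower in CMPs with *Renilla* shRNA (log2 fold change -0.63, adjusted p = 0.015) and the other 7 were not called, with a median of -0.22. Of 15 activators of Hox and *Meis1* loci, *Kmt2a*, which encodes the MLL methyltransferase, was lower (-0.78, adjusted p = 0.0228), *Aff4* was lower (-0.91, adjusted p = 0.0204) and *Dpy30* higher (0.41, adjusted p = 0.00903). The median of this list was -0.11. Of 13 Polycomb subunits, which silence Hox clusters, *Cbx2* (-0.94, adjusted p = 0.00618) and *Phc1* (-0.80, adjusted p = 0.0165) were lower, and the median was -0.18. None of the 3 genes *Tef*, *Dbp* and *Nfil3*, relatives or antagonists of *Hlf*, was called. Of 8 other PRDM genes, 3 were lower, among them *Prdm2* (-1.30, adjusted p = 0.0128) and *Prdm11* (-0.75, adjusted p = 0.0484), with a list median of -0.55.

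Of 11 genes described as targets of Hoxa9 or Meis1, 5 were lower in CMPs with *Renilla* shRNA and 1 was higher, against 8.73% and 11% of all genes. *Erg*, a stem cell Ets factor (log2 fold change -2.31, adjusted p = 8.95e-05), and *Flt3*, a receptor of multipotent progenitors (-1.33, adjusted p = 0.000196), were lower, whereas *Trib2* was higher (2.44, adjusted p = 2.83e-05). Of 13 other stem cell enriched genes, 4 were lower and 1 was higher. *Procr*, which encodes EPCR (-2.84, adjusted p = 3.21e-05), and *Fgd5* (-3.49, adjusted p = 0.000297) fell, and *Vwf*, also expressed by megakaryocytes, rose (1.29, adjusted p = 0.0327). The medians of these lists were -0.20 and -0.61, against -1.42 for the 9 genes.

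For each of the 8 genes called with *Renilla*, the genes with the most similar pattern were sought by the root mean square (RMS) difference of centred log2 CPM over the 19 libraries, among 15057 genes. The closest to *Meis1* was *Skap2* (RMS difference 0.128), on chromosome 6 from 51857422 to 52012549, on the *Hoxa5* side of the Hoxa cluster. *Plppr3* was closest to *Hoxa7* (0.186), *Eif4e3* to *Hoxa9* (0.311), *Rtp4* to *Hoxa10* (0.327) and Gm20342 to *Hoxa5* (0.412). *Maged1* was the closest to *Hlf* (0.413) and among the 3 closest to *Hoxa10* (0.347). *Camkk1* was closest to *Prdm16* (0.424) and *Cadps2* to *Mecom* (0.461). For scale, *Hlf* itself had an RMS of 1.17 about its own mean, *Mecom* 1.52 and *Meis1* 0.382.

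The comparisons of *Spehd* shRNAs with the control addressed the effect of losing the lncRNA. With sh10 and sh20 as 1 group, none of the 9 genes was called in CMPs, where 0.116% of 12912 genes were, nor in LSK cells, where 0% of 13441 were. At an unadjusted p under 0.05 there was no gene of the 9 in CMPs, where 2149 of 12912 genes were. In LSK cells, where 492 of 13441 genes were, there was 1, *Hlf* (log2 fold change -0.48 ± 0.15 SE, edgeR adjusted p = 0.998). DESeq2 called none of the 9 in either cell type, with 3 left without an adjusted p in CMPs. The medians of the 9 were -0.22 in CMPs and -0.19 in LSK cells, against 0.02 and 0.00 over all genes.

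Taken separately, the shRNAs gave different values in CMPs. Both comparisons share the *Renilla* libraries. With sh10, 6 of the 9 genes had a negative log2 fold change and the median was -0.56, against -0.01 over all genes. With sh20, 4 were negative and the median was 0.02, against 0.01 over all genes. None of the 9 was called by edgeR, against 1.97% of 13824 genes with sh10 and 6.17% with sh20. At an unadjusted p under 0.05 there were 3 with sh10 (*Hoxa10*, *Meis1* and *Hlf*), where 2926 of 13824 genes were. With sh20 there was 1 (*Hoxa9*), where 3395 of 13824 genes were. DESeq2 called the 3 genes named for sh10 and none with sh20. The share of all genes that DESeq2 called is not given here. Of 8 lymphoid markers listed, 3 were tested in these comparisons, and the T cell markers among them differed between the libraries. *Cd3e* was at 8.53 to 16.4 CPM in CMP *Renilla*, 0 to 1.05 in CMP sh10 and 11.9 to 33.7 in CMP sh20 libraries. *Cd2* was at 19.3 to 29 CPM in CMP *Renilla*, 1.61 to 2.52 in CMP sh10 and 4.57 to 5.93 in CMP sh20 libraries, and was called lower with sh10 (log2 fold change -3.40, edgeR adjusted p = 0.00409) and with sh20 (-2.14, edgeR adjusted p = 0.0107). The summed level of 8 granulocyte and monocyte progenitor markers was 480 to 683 CPM in CMP *Renilla*, 700 to 873 in CMP sh10 and 589 to 600 in CMP sh20 libraries. None of the 7 of them tested was called with either shRNA. That of 8 erythroid and megakaryocyte progenitor markers was 2140 to 2330 CPM in CMP *Renilla*, 1870 to 1940 in CMP sh10 and 1910 to 1950 in CMP sh20 libraries, with 1 called lower with sh10 and 2 with sh20. The 7 gate markers summed to 1110 to 1320 CPM in CMP *Renilla*, 1280 to 1440 in CMP sh10 and 807 to 970 in CMP sh20 libraries. Among them only *Cd34* was called with sh20, and it was lower (log2 fold change -0.85, edgeR adjusted p = 0.00971). It was also lower with sh20 than with sh10 (-0.80, edgeR adjusted p = 0.0155). It was not called with sh10 against *Renilla* (-0.06, edgeR adjusted p = 0.833). The part of the gate markers, or of the cells of the other markers, in the values below was not tested.

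*Meis1* came nearest to the threshold with sh10. Its CMP sh10 libraries were at 158, 183 and 237 CPM, all below the lowest CMP *Renilla* library at 257. The log2 fold change was -0.56 ± 0.13 SE, with a 95% interval from -0.85 to -0.27 (edgeR adjusted p = 0.0592). It was called by DESeq2 (adjusted p = 0.00316). With sh20 the log2 fold change of *Meis1* was 0.02, with an interval from -0.31 to 0.34. Gm16140, on the opposite strand of *Meis1*, ran from 6.23 to 8.77 CPM in CMP sh10 libraries, from 16.7 to 21.6 in CMP *Renilla* and from 14.8 to 22.5 in CMP sh20 libraries. It was lower with sh10 (log2 fold change -1.33 ± 0.26 SE, edgeR adjusted p = 0.0378) and higher with sh20 than with sh10 (1.34, edgeR adjusted p = 0.0316).

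*Hlf* and *Hoxa10* were also below every CMP *Renilla* library in all 3 CMP sh10 libraries. For *Hlf* the log2 fold change was -0.72 ± 0.23 SE, with a 95% interval from -1.23 to -0.20 (edgeR adjusted p = 0.121, DESeq2 adjusted p = 0.0487). For *Hoxa10* it was -0.92 ± 0.26 SE, with an interval from -1.51 to -0.33 (edgeR adjusted p = 0.0939, DESeq2 adjusted p = 0.0276). *Mecom* was at 15.1 to 21.3 CPM with sh10 against 31.3 to 41.7 with *Renilla*, without overlap, yet its log2 fold change of -0.99 ± 0.63 SE was far from the threshold (edgeR adjusted p = 0.412) in the fit that shares its spread with sh20. Without CMP sh20 library B the sh10 log2 fold changes of *Mecom*, *Meis1* and *Hlf* were -0.99, -0.56 and -0.72. Without CMP sh20 library C they were -0.98, -0.55 and -0.71. Both fits leave a lone CMP sh20 library, and the share of all genes called in them is not given here. Calls in these fits therefore cannot be read as a result about these genes. *Prdm16* was at 3.01 to 3.55 CPM with sh10 and overlapped *Renilla* (log2 fold change -1.19, 95% interval -2.65 to 0.26). *Hoxa5*, *Hoxa7* and *Hoxa9* had log2 fold changes of 0.20, 0.03 and -0.26, with intervals that included 0.

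**Figure D4:**
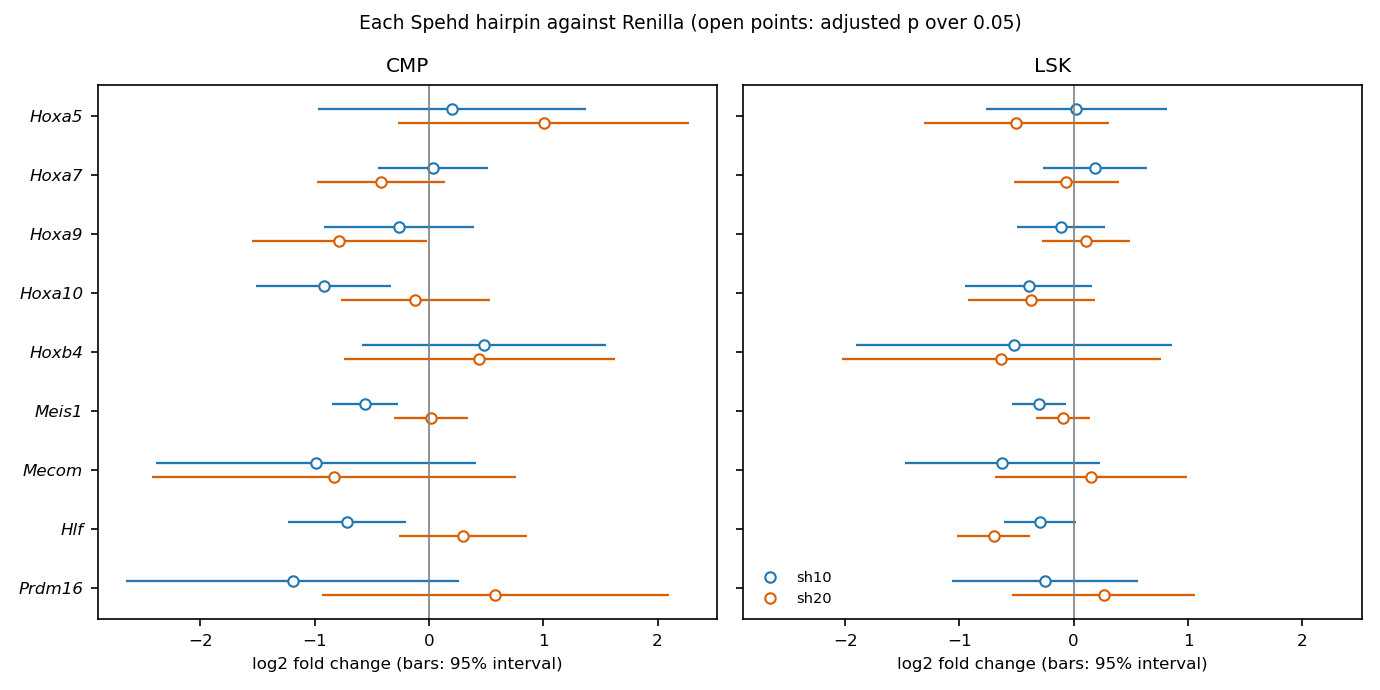
Points are log2 fold changes of sh10 (blue) and sh20 (orange) over Renilla shRNA in CMPs (left) and LSK cells (right), and bars are 95% intervals from edgeR. No point passed an adjusted p of 0.05. In CMPs the sh10 intervals of Hoxa10, Meis1 and Hlf lie below 0, and in LSK cells so do those of sh20 for Hlf and sh10 for Meis1.

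With sh20 in CMPs the libraries B and C differed most for *Mecom*, *Prdm16*, *Hoxa9* and *Hlf*. They were closer for *Hoxa10* (21.5 and 22.1 CPM), *Meis1* (270 and 298) and *Hoxb4* (2.54 and 2.11). *Hoxa7* was at 14.7 and 21.8 CPM and *Hoxa5* at 5.76 and 9.48. *Mecom* was 2.37 CPM in B and 37.1 in C, with C inside the *Renilla* range of 31.3 to 41.7 and B below it. *Hoxa9* was 16.9 and 46.4 CPM, both below the lowest *Renilla* library at 48.0 (log2 fold change -0.79, 95% interval -1.55 to -0.02, edgeR adjusted p = 0.193), and its log2 fold change was -0.24 without library B. *Prdm16* and *Hlf* went the other way, with B at 19 and 83.7 CPM, above all *Renilla* CMPs, and C at 3.51 and 46.9. With library B as the lone sh20 library, the log2 fold change was -1.68 for *Hoxa9* and -3.86 for *Mecom*.

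The direct comparison of sh20 with sh10 in CMPs showed no call among the 9, against 6.41% of 13824 genes. *Hlf* (log2 fold change 1.02 ± 0.27 SE, edgeR adjusted p = 0.0522) and *Meis1* (0.58 ± 0.15 SE, edgeR adjusted p = 0.0526) were higher in both sh20 libraries than in all 3 sh10 libraries and just missed the threshold. DESeq2 called both (adjusted p = 0.008 and 0.00775). Without CMP sh20 library B the log2 fold changes were 0.53 for *Hlf* and 0.64 for *Meis1*, and without C they were 1.37 and 0.51. *Hoxa10* and *Prdm16* also had an unadjusted p under 0.05, as had 3668 of the 13824 genes. The log2 fold change of *Prdm16*, 1.78, was 0.10 without library B and 2.53 without C. Of 12 other stem cell enriched genes tested in the same comparison, 6 were higher with sh20 and none lower, among them *Mycn* (1.26, adjusted p = 0.0227) and *Tie1* (1.47, adjusted p = 0.0256). The summed level of all 13 was 444 to 743 CPM in CMP sh10, 739 to 1500 in CMP *Renilla* and 1320 to 1420 in CMP sh20 libraries. Against *Renilla*, 2 of the 12 were lower with sh10, among them *Mycn* (-0.996, adjusted p = 0.0496), and none of the 12 was called with sh20.

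In LSK cells none of the 9 was called with sh10 or sh20 against *Renilla* or between them, and 0% of 13828 genes were in each of the 3 comparisons (457, 1152 and 1268 genes had an unadjusted p under 0.05). *Hlf* with sh20 was the nearest. Its libraries at 159, 183 and 159 CPM were all below the lowest LSK *Renilla* library at 230, a log2 fold change of -0.70 ± 0.14 SE with a 95% interval from -1.02 to -0.38 (edgeR adjusted p = 0.181, DESeq2 adjusted p = 0.0131). *Meis1* with sh10 was below all *Renilla* libraries as well (-0.30, 95% interval -0.54 to -0.06, edgeR adjusted p = 0.995), and its log2 fold change was -0.19 without LSK sh10 library B. *Mecom* with sh10 was at 111 and 119 CPM in libraries A and C, close to the *Renilla* range, and at 26.4 in B, where mature neutrophil markers summed to 283 CPM against 64.7 and 90.5. Its log2 fold change with sh10 was -0.62 with library B and -0.20 without it. In LSK *Renilla* libraries A to D mature neutrophil markers summed to 4.44, 311, 8.46 and 158 CPM, and *Mecom* was at 121, 142, 149 and 113 CPM. The part of mature neutrophils in the *Mecom* values was not tested. With sh10 against *Renilla* and with sh20 against sh10, DESeq2 called none of the 9.

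Whether an shRNA acted differently in CMPs and LSK cells was tested in 1 fit of all 6 groups. None of the 9 genes was called for both shRNAs together (0.0531% of 15066 genes were), for sh10 (0.0199%) or for sh20 (0.584%), and DESeq2 called none either. At an unadjusted p under 0.05 there were 0, 0 and 3 of the 9, against 1518, 1169 and 2085 of 15066 genes. The nearest was *Hlf* with sh20, lower than *Renilla* in LSK cells and not in CMPs, with a difference of 0.96 ± 0.28 SE on the log2 scale (95% interval 0.36 to 1.56, edgeR adjusted p = 0.17). *Hoxa9* (-0.93, interval -1.73 to -0.13, edgeR adjusted p = 0.296) and *Hoxa5* (1.46, interval 0.11 to 2.82, edgeR adjusted p = 0.326) followed. Without CMP sh20 library B these differences were 0.48 for *Hlf*, -0.39 for *Hoxa9* and 1.77 for *Hoxa5*. Without library C they were 1.31, -1.84 and 1.05. For *Meis1* with sh10 the difference between cell types was -0.25, with an interval from -0.63 to 0.13, and -0.37 without LSK sh10 library B.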

How the data were processed

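The deposited data are whole counts of reads per gene, 1 file for each of 19 libraries. The authors mapped SMART-Seq v4 reads to mm10 with STAR, removed duplicates with Picard and counted on GENCODE genes with HTSeq at default settings. A deposited table of normalized values was not used. Totals of 3647318 to 5965155 counts set the precision.

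Counts were normalized by TMM, filtered with filterByExpr (minimum count 10, minimum total 15) and tested by quasi-likelihood in edgeR. P-values were adjusted over all genes tested (Benjamini-Hochberg) and called under 0.05. CMPs and LSK cells, and the difference between cell types, were compared in a fit of all 6 groups, and shRNAs within a cell type in fits of its groups. CPM are TMM-normalized, and log2 CPM used a prior count of 2. Reads on no gene were 1.10 to 1.19 per counted read and stayed out of library sizes. The test was checked on simulated data. Groups and replicate letters came from the labels.

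All 9 genes are named. From each list the text names up to 4 genes with the smallest p, besides genes that share exonic bases with a member and the nearest genes by RMS difference. Values of some list genes are not reported here. Members and lists were chosen with earlier results of these data known. Alternatives were edgeR with upper quartile or DESeq2 size-factor scaling, without a filter or with every library at 10 counts or more, the whole of DESeq2, a replicate block, a depth covariate, all 19 libraries in 1 fit, and leaving out each library. Leaving out CMP sh20 library B and LSK sh10 library B together, called below the libraries that stand apart, was chosen after seeing the data. CMP sh20 library C lay as far from B as B from C, so distance does not single out B. DESeq2 was version 1.42.0, limma 3.58.1 and edgeR 4.0.16, run in R 4.3.3. Python was version 3.11.15, with pandas 2.3.3, matplotlib 3.10.9 and numpy 2.4.6. Symbols of 53775 of 54352 genes matched GENCODE vM21 on GRCm38.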

Additional observations from a re-analysis of the deposited data

Results flagged for a closer look

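*Hoxa10* had 1 library far from the other 3 in each *Renilla* group. In LSK *Renilla* library C its log2 CPM was 5.74, against 6.25 to 6.35 in the others, a gap of 0.832 of the whole range. In CMP *Renilla* library B its log2 CPM was 4.17, against 4.68 to 4.76, a gap of 0.866 of the range. Both exceed Dixon's critical value of 0.829 for 4 samples. They are 2 of 18 groups of values tested, and chance alone flags about 1 in 20. Both libraries were the lowest of their group, and the groups stayed apart with them included.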

How the results depend on the processing

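The falls from LSK cells to CMPs were the steadiest results. Across all alternatives between 6 and 8 of the 9 genes were called with *Renilla*, 6 to 8 with sh10 and 5 or 6 with sh20, always lower. The lowest count with *Renilla*, 6, came without CMP *Renilla* library A, when *Hoxa5* and *Prdm16* lost their calls. The replicate block was the letter, shared across shRNAs, so it does not model pairs of libraries within an shRNA. With this block the counts were 8, 7 and 5, and 0 in each of the 11 other comparisons, so it changed no count. Letters are not stated to pair libraries. Within a cell type, the correlation of deviations ran from -0.0792 to 0.0444 for libraries of 1 letter, against -0.111 to 0.0943 for other letters. Within an shRNA, across cell types, it ran from -0.000694 to 0.21 (median 0.0522) for 1 letter. For other letters it ran from -0.169 to 0.0901 (median -0.0269). Whether libraries of 1 letter share animals was not tested.

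The counts of 0 in the shRNA comparisons depended on the processing, and beyond the libraries left out the cause was not tested. The share of all genes called in each alternative is not given here, so calls gained cannot be told from a general rise in calls. For sh10 against *Renilla* in CMPs, 1 gene (*Meis1*) was called with upper quartile normalization, without a filter, with a minimum of 10 counts in each library and with all 19 libraries in 1 fit, and 3 were called by DESeq2. Leaving out each library gave 0 to 3, and leaving out both libraries that stand apart gave 3. For sh20 against *Renilla*, single libraries left out gave 0 to 2 in CMPs, where 2 needed CMP sh20 library C left out. In LSK cells 1 gene (*Hlf*) was called without a filter and by DESeq2. For sh20 against sh10 in CMPs, 2 genes (*Meis1* and *Hlf*) were called without a filter, with the minimum of 10 counts, by DESeq2 and with all 19 in 1 fit, 1 (*Mecom*) without both libraries that stand apart, and 0 to 4 with 1 library left out, 4 being without CMP sh20 library C. The difference between cell types gave 0 to 2 for both shRNAs and 0 to 3 for sh20 with 1 library left out, the highest without CMP sh20 library C, and 1 for sh20 (*Hlf*) without a filter. *Mecom* in sh20 against sh10 CMPs was 0.16 on the log2 scale, -2.88 without library C and 1.06 without library B. Of 2754 alternative values of single genes, 12 lost a call, 47 gained one and 1, that of *Mecom* without library C, changed sign and passed the threshold. Another 81 changed sign without passing the threshold in either fit.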
